A study of Rattus norvegicus with 9 samples.

Results

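The 8 genes described here are best known from fat cells: Cfd, Lpl, Fabp4, Lipe, Plin1, Pparg, Cd36 and Scd. They were followed in the non-tumor wall of the rat proximal colon (mucosa and smooth muscle) after lifetime feeding of 3 protein sources. Their members on the array were taken by name, as every probe set to which the platform annotation gives 1 of these symbols and no other, which gave 13 probe sets out of 8799. The 8 genes were among 4737 genes that the array represents by such a probe set.

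Male Sprague Dawley rats were fed soy protein isolate (SPI), whey protein hydrolysate (WPH) or casein (CAS, the control diet), as were their mothers before them, in purified diets that differed in the protein alone. Rats of all 3 diets, the CAS controls included, were injected 2 times with the carcinogen azoxymethane (AOM), which gives colon tumors in rats, at 15 mg/kg from 90 days of age, and the tissue was taken 40 weeks later. Equal amounts of RNA of 7 rats made 1 pool per diet, and 3 cRNA targets made in parallel from each pool were hybridized to 9 Affymetrix rat U34A arrays. The 3 arrays of a diet therefore repeat labelling and hybridization, and a p-value compares pools with that technical spread and does not refer to rats.

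Fat cells store fatty acids as triglyceride and release them between meals. Lipoprotein lipase, the product of Lpl, frees fatty acids from circulating lipoproteins, Cd36 takes them up through the cell membrane, and Fabp4 carries them inside the cell. Scd, stearoyl-CoA desaturase, makes monounsaturated fatty acids for storage, perilipin (Plin1) coats the lipid droplet, and hormone-sensitive lipase (Lipe) hydrolyses its contents. Pparg is the nuclear receptor that drives fat cell differentiation and binds DNA together with a retinoid X receptor, and Cfd encodes adipsin, a serine protease of the alternative complement pathway that adipocytes secrete. Several of these genes are also used outside fat: Lpl in muscle and macrophages, Cd36 and Fabp4 in endothelium and macrophages, and Pparg in the epithelium of the colon.

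The signals on these arrays are brightness values on a linear scale, each array scaled to the same average, and they set 1 probe set against itself across arrays, never 1 probe set against another. Between 58.7 and 60.2% of probe sets reached a signal of 100 on the SPI arrays, 58.6 to 60.1% on the WPH arrays and 58.7 to 60.2% on the CAS arrays. The number of arrays, 3 per diet, limits the precision. Diets were compared on the log2 scale with limma for the 5606 probe sets that averaged 100 or more in at least 1 diet, and probe sets with an adjusted p under 0.05 were counted as higher or lower. By the run times that the instrument recorded, the arrays fell into 3 groups, here called wash rounds. They were the 3 CAS arrays with WPH replicate 2, SPI replicates 1 and 2 with WPH replicates 1 and 3, and SPI replicate 3 by itself. No SPI array shared a round with a CAS array, so that for SPI against CAS the round and the diet can be separated only by way of the WPH arrays.

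Of the 13 probe sets, 9 were bright enough to be compared. They stand for 6 genes: 1 probe set each for Cfd, Fabp4, Pparg and Scd, 2 for Lipe and 3 for Lpl. None of the 9 passed through 1 diet alone, because the lowest of their signals on any array was 130.0. The other 4 probe sets, which are all those for Cd36 and Plin1 and the second one for Scd, lay under 100 on all 9 arrays.

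The 6 genes with a bright probe set moved in 2 directions. Signals for Cfd, Lpl, Fabp4 and Lipe were higher with WPH and with SPI than with CAS, those for Pparg were lower with both, and the bright probe set for Scd did not pass the test. In WPH against CAS, 7 of the 9 probe sets (4 genes) were higher and 1 was lower, beside 20.9% of all tested probe sets called higher and 17.9% called lower. In SPI against CAS the counts were again 7 higher and 1 lower, beside 12% higher and 10.2% lower among all tested probe sets. On these 8 probe sets no array overlapped with CAS, 7 lying above and 1 below in each comparison, which 28% and 22.4% of all tested probe sets did in WPH against CAS and 19.5% and 19.1% in SPI against CAS. Both comparisons use the same 3 CAS arrays, so that their counts are not independent of each other. The count of higher probe sets in SPI against CAS was 4 without CAS replicate 3 and 3 with the wash round as a term, and the lower one was not called under either setting.

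**Figure D1:**
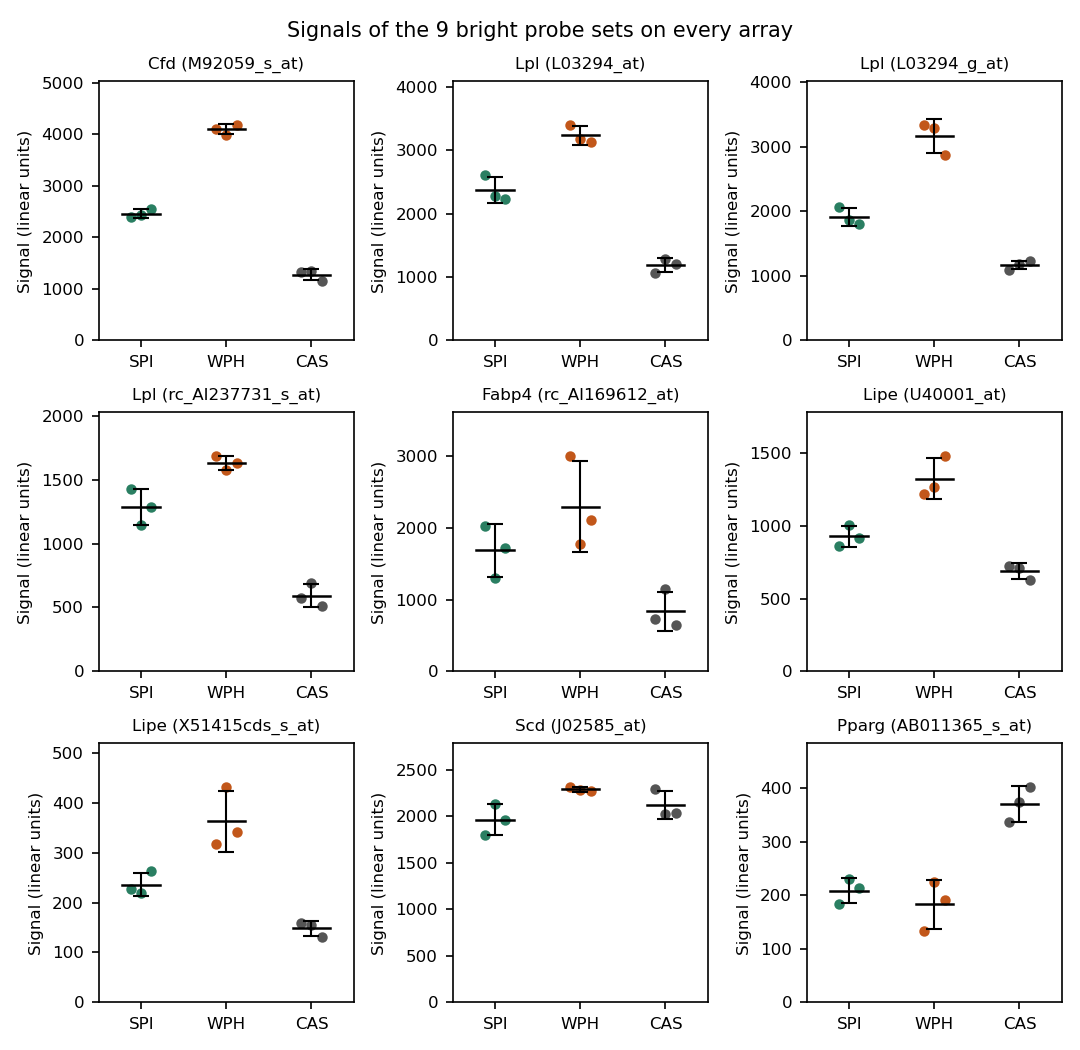
Signal (linear units) of the 9 bright probe sets on each array with SPI, WPH and CAS; points are arrays, the long bar is the mean and the whiskers are 1 SD over 3 arrays. Signals for Cfd, Lpl and Lipe stood highest with WPH and lowest with CAS without overlap between SPI and CAS, whereas those for Pparg stood highest with CAS, at 336 to 403.

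Adipsin had the largest fold change among the members in WPH against CAS. The single Cfd probe set (M92059_s_at) had signals of 2396.5, 2425.5 and 2559 on the SPI arrays, 4113, 3994 and 4187 on the WPH arrays, and 1334, 1347 and 1150.4 on the CAS arrays. The 3 diets did not overlap, and WPH was highest and CAS lowest. The mean was 4098 ± 97.5 with WPH and 1277 ± 110.0 with CAS (SD, n = 3 each), a 3.21-fold higher signal and a log2 change of 1.69 ± 0.09 (SE, limma adjusted p = 1.17e-07). The SPI mean of 2460 ± 86.7 was 1.93-fold that of CAS (log2 change 0.95 ± 0.09, adjusted p = 2.22e-05). Each call for Cfd held under every alternative that was run, with a highest adjusted p of 0.000768 in WPH against CAS and of 0.0338 in SPI against CAS.

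The 300 bases around the RefSeq start of Cfd (GRCr8, chr7:10465447-10465746, minus strand) are shown because Cfd is the only 1 of the 4 genes with higher signals that the promoter table holds. The first 250 bases lie before the start and the last 50 after it. The last 50 begin with atg, the letters of a start codon, and whether transcription starts there was not tested. Both strands were searched for AGGTCANAGGTCA, a direct repeat of the kind to which Pparg with a retinoid X receptor binds, and for the CCAAT and TATAAA boxes.
Cfd: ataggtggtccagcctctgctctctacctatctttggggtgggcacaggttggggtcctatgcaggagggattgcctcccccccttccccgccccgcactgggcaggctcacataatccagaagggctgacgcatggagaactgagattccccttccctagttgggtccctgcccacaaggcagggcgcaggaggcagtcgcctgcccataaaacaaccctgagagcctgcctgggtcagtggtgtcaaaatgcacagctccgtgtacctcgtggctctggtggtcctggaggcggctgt
None of the 3 motifs is written in this window, which is therefore in lower case throughout. The repeat was not matched with up to 2 mismatches either, which 3.77% of the 33469 rat promoters in the table do match, and no match says only that these letters are not in this window. The CCAAT box is found in 37.5% of all promoters and TATAAA in 14.2%.

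Lipoprotein lipase was measured by 3 probe sets, of which L03294_at and L03294_g_at were made from the same sequence record, so that the 3 are not independent. Signals of L03294_at were 2615, 2283 and 2227 with SPI, 3406, 3179 and 3128.5 with WPH, and 1071, 1288 and 1214 with CAS. Every array with WPH was above every array with SPI, and these in turn were above every CAS array. The log2 change in WPH against CAS was 1.45 ± 0.1 for L03294_at, 1.44 ± 0.1 for L03294_g_at and 1.47 ± 0.13 for rc_AI237731_s_at, or 2.72-, 2.72- and 2.76-fold (limma adjusted p = 8.87e-07, 7.74e-07 and 3.74e-06). The 3 probe sets thus gave nearly the same size for WPH.

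They spread more for SPI. Signals were 1.99-fold (L03294_at), 1.64-fold (L03294_g_at) and 2.17-fold (rc_AI237731_s_at) those with CAS, with log2 changes of 1.0 ± 0.1, 0.71 ± 0.1 and 1.13 ± 0.13 and adjusted p = 4.45e-05, 0.000401 and 9.03e-05 by limma. Averaged over its probe sets, the log2 change of Lpl was 0.94 with SPI and 1.45 with WPH. With the wash round as a term, rc_AI237731_s_at in SPI against CAS was no longer called (1.05, adjusted p = 0.0609), while the other 2 probe sets were.

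Fabp4 (rc_AI169612_at), the fatty acid carrier, varied most between arrays of a diet. Its signals were 2028, 1303 and 1724 with SPI, 3006, 1779 and 2103.5 with WPH, and 724, 1146 and 641 with CAS. WPH and SPI overlapped, and neither overlapped with CAS, although the lowest SPI array lay only a little above the highest CAS array. Fabp4 was 2.74-fold higher with WPH than with CAS (log2 change 1.47 ± 0.25, adjusted p = 0.000612) and 2.01-fold higher with SPI (1.03 ± 0.25, adjusted p = 0.0113). The WPH call was lost under the methods' t-test after adjustment (adjusted p = 0.0662), and so was the SPI call (0.124). The SPI call also rested on single arrays, with adjusted p = 0.0503 without SPI replicate 1, 0.0518 without CAS replicate 3, and a log2 change of 0.51 (adjusted p = 0.638) with the wash round as a term.

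Hormone-sensitive lipase was the least changed of the 4 genes with higher signals. Lipe signals on U40001_at were 859, 1007 and 915 with SPI, 1221, 1268 and 1482 with WPH, and 725.5, 712 and 625 with CAS. On X51415cds_s_at, a dimmer probe set of the same gene, they were 226, 219 and 263 with SPI, 316, 432 and 341 with WPH, and 159, 156 and 130.0 with CAS. The order of the diets was the same on both, with no overlap. The WPH signal was 1.93-fold (0.94 ± 0.11, adjusted p = 5.98e-05) and 2.45-fold (1.29 ± 0.17, adjusted p = 9.94e-05) that of CAS, and the SPI signal 1.35-fold (0.43 ± 0.11, adjusted p = 0.0197) and 1.59-fold (0.67 ± 0.17, adjusted p = 0.0142), for U40001_at first. With the wash round as a term the SPI values were 0.35 (adjusted p = 0.483) and 0.99 (adjusted p = 0.096), and both SPI calls were lost without SPI replicate 3 (adjusted p = 0.0503 and 0.0614) or CAS replicate 3 (0.0792 and 0.0581), and that of U40001_at without SPI replicate 2 (0.0587).

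Scd, the desaturase, had a bright probe set that stood nearly level across the diets. Signals of J02585_at were 1801, 2132.5 and 1954 with SPI, 2318, 2278 and 2272 with WPH, and 2296, 2028 and 2034 with CAS. SPI and WPH each overlapped with CAS. The log2 change was 0.11 ± 0.09 in WPH against CAS (adjusted p = 0.365) and -0.11 ± 0.09 in SPI against CAS (adjusted p = 0.448), and a p that misses the threshold does not show that the diets were equal. The second probe set, rc_AI175764_s_at, read 8.6 to 21.8 over all arrays and was not compared.

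Pparg, the receptor, moved the other way. Signals of AB011365_s_at were 184, 231 and 213.5 with SPI, 133, 224 and 191.5 with WPH, and 336, 375 and 403 with CAS. All 6 arrays of SPI and WPH were below all 3 CAS arrays, and SPI and WPH overlapped. The mean was 183 ± 46.4 with WPH against 371 ± 33.5 with CAS, 2.03-fold lower (log2 change -1.05 ± 0.2, limma adjusted p = 0.00135), and 209 ± 23.8 with SPI, 1.77-fold lower (-0.83 ± 0.2, adjusted p = 0.0117). Neither call held with the wash round as a term, where the values were -0.72 (adjusted p = 0.0804) for WPH and -0.35 (adjusted p = 0.667) for SPI, and the SPI call was lost as well without SPI replicate 1 (adjusted p = 0.0505) or CAS replicate 3 (adjusted p = 0.0508).

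For Pparg the promoter table holds windows around 2 starts on the plus strand of chromosome 4 (GRCr8, chr4:150096808-150097107 and chr4:150154522-150154821). They are shown because Pparg was the only gene of the set with lower signals, and the probe set was not assigned to either start. Capitals mark TTTATA, which is TATAAA on the opposite strand and begins 28 bases after the start, in the first window, and CCAAT, which begins 103 bases before the start, in the second.
Pparg, first start: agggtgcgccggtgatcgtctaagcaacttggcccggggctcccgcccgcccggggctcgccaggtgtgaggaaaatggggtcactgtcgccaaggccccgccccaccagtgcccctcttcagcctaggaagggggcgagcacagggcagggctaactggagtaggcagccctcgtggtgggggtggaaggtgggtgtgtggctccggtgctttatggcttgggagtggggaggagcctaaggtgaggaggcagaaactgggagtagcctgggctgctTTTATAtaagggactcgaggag
Pparg, second start: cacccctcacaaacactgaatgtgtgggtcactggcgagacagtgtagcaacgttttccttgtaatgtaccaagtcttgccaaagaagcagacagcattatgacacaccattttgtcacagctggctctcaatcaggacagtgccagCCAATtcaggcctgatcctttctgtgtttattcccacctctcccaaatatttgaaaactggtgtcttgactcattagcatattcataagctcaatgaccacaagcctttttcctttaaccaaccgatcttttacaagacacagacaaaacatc
The direct repeat was in neither window, with up to 2 mismatches. In the windows for Plin1, Cd36 and Scd, which are not printed, the repeat was not matched either.

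Cd36 and Plin1 were dim in every diet. Cd36 on AB005743_at read 60.4, 71.2 and 79.6 with SPI, 73.2, 31.9 and 77.7 with WPH, and 6.0, 45.9 and 59.1 with CAS, and its second probe set AB005743_g_at read 4.6 to 16.1 over all arrays. Plin1 on L26043_at, the droplet coat protein and a defining marker of fat cells, read 47.5, 34.2 and 27.2 with SPI, 51.8, 41.8 and 94.2 with WPH, and 60.1, 15.6 and 42.6 with CAS. Apart from the SPI and CAS arrays of AB005743_at, the diets overlapped on L26043_at and on both Cd36 probe sets, and no fold is given for signals this low.

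**Figure D2:**
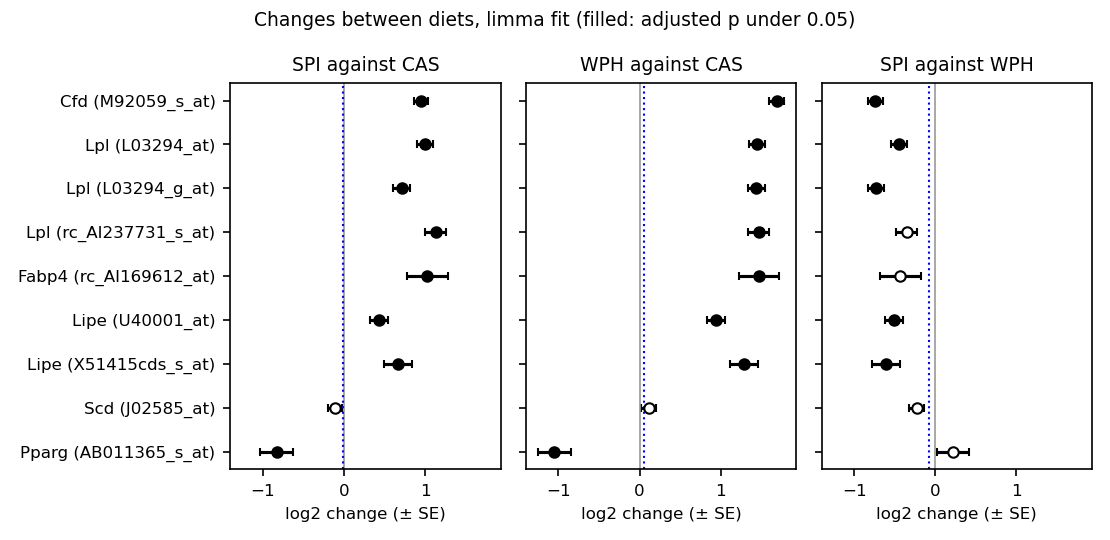
Log2 change (x axis, ± SE) of the 9 bright probe sets in the 3 comparisons of 1 limma fit; filled points had an adjusted p under 0.05, open points did not, the grey line is 0 and the dotted line is the median of all 5606 probe sets. Cfd, Lpl, Fabp4 and Lipe lie right of 0 against CAS and left of 0 in SPI against WPH, and Pparg lies left of 0 against CAS.

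Whether SPI and WPH differed was tested directly. In SPI against WPH, 5 of the 9 probe sets (Cfd, 2 of Lpl and both of Lipe) were lower with SPI and none was higher in limma, nor in the methods' t-test before or after adjustment, beside 9.83% of all tested probe sets called lower and 10.1% called higher. Cfd was 0.6-fold with SPI relative to WPH (log2 change -0.74 ± 0.09, adjusted p = 0.000162) and Lpl on L03294_g_at 0.603-fold (-0.73 ± 0.1, adjusted p = 0.000372), and these 2 held with the wash round as a term. Lpl on L03294_at (-0.45 ± 0.1, adjusted p = 0.00901) and Lipe on U40001_at (-0.51 ± 0.11, adjusted p = 0.00909) and X51415cds_s_at (-0.61 ± 0.17, adjusted p = 0.025) were also called, but with the wash round as a term their adjusted p was 0.0853, 0.0648 and 0.0973. The call of X51415cds_s_at was also lost without SPI replicate 1 (0.0808), SPI replicate 2 (0.0697) or WPH replicate 2 (0.0973). After adjustment, the methods' t-test called neither U40001_at nor X51415cds_s_at (adjusted p = 0.0818 and 0.128). Values that did not pass were -0.35 ± 0.13 for Lpl on rc_AI237731_s_at (adjusted p = 0.077, and 0.0447 without CAS replicate 2), -0.43 ± 0.25 for Fabp4 (0.259), -0.23 ± 0.09 for Scd (0.119) and 0.22 ± 0.2 for Pparg (0.478).

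A 2-fold minimum was also applied. In WPH against CAS, 6 probe sets of Cfd, Lpl, Fabp4 and Lipe were higher and Pparg was lower, where 5.55% and 8.47% of all tested probe sets met the same rule. In SPI against CAS, 2 probe sets (1 of Lpl and that of Fabp4) were higher and none was lower, where 2.41% and 3.37% of all did, and Lpl on L03294_at and Cfd lay just under the minimum at 1.99- and 1.93-fold. None of the 9 was called with a 2-fold change between SPI and WPH, where 4.48% of all tested probe sets were higher and 1.02% lower. On 7 of the 9, those of Cfd, Lpl, Lipe and Scd, every SPI array lay below every WPH array, as 20.9% of all tested probe sets did, and on none did every SPI array lie above, as 14.9% did.

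The 7 probe sets of Cfd, Lpl, Fabp4 and Lipe stood in the same order of diet means. Over the 9 arrays, Pearson's r of their log2 signals was between 0.8 and 0.98 for each pair, and r of each with Pparg was between -0.94 and -0.79. With Scd it was between 0.07 and 0.5. These are descriptions of 9 points that share 3 pools, and they reflect differences between the pools. For deviations from the diet means, r among the same 7 probe sets ran from -0.84 to 0.9 and was below 0 for 9 of 21 pairs.

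The genes whose pattern was most like that of Cfd, among 3601 other probe sets with 1 symbol and a mean of at least 200 in at least 1 diet, were Des (r = 0.996), Atp1b3 (0.993), Dnajb5 (0.992), Tpm1 (0.991) and Prph (0.99). Des and Tpm1 encode the muscle proteins desmin and tropomyosin, and Prph encodes peripherin, an intermediate filament of peripheral neurons. Mean Des signals were 18031 with SPI, 24874 with WPH and 12332 with CAS, the same order as for Cfd. For Lpl (L03294_at) the nearest genes were Igfbp2 (0.996), Flnc (0.99), Dcn (0.988), Rps6 (0.985) and Plcb1 (0.985), of which Flnc encodes a muscle filamin and Dcn the matrix proteoglycan decorin. The likeness was measured over the same 9 arrays.

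The label of these genes was checked against other genes of fat cells. From a list of 12 adipocyte markers that leaves out the 8 genes, 6 were measured: Lep, Cidea, Aqp7, Slc2a4, Adrb3 and Pck1. Not all are particular to fat, as Slc2a4 is also used in muscle. Lep, which encodes the fat cell hormone leptin, read 1638 to 2038.5 with SPI, 1750 to 1908 with WPH and 1801 to 2000 with CAS, and its log2 change was -0.05 ± 0.1 in WPH against CAS (adjusted p = 0.716) and -0.03 ± 0.1 in SPI against CAS (0.859). In WPH against CAS 3 of the 6 were higher (Cidea, Slc2a4 and Adrb3) and Pck1 was lower, with a median log2 change of 0.45, beside 20.9% higher, 17.9% lower and a median of 0.06 over all tested probe sets. In SPI against CAS 2 were higher (Slc2a4 and Adrb3) and Pck1 was lower, with a median of -0.03, beside 12%, 10.2% and -0.01. Their summed signal was 4584 to 5239 with SPI, 5896 to 6029 with WPH and 4395 to 4569 with CAS. The sum with WPH was carried by Slc2a4 and Adrb3, whose means were 1898 and 1377 with WPH and 1019 and 678 with CAS. The 6 markers were thus divided, with Lep not past the test and 3 of the 6 higher in WPH against CAS. The single Plin1 probe set was under 100 on every array, which does not show that the gene was silent. The arrays do not by themselves place the 8 genes in fat cells, and the text calls the genes by name.

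A wider list of 69 other genes of fat cells and lipid storage gave 49 that were measured and 40 that were bright enough to be compared. It also holds the 6 measured markers above, so that the lists are not independent. In WPH against CAS 13 of the 40 were higher and 6 lower (median log2 change -0.01), beside 20.9% and 17.9% of all tested probe sets with a median of 0.06. In SPI against CAS 10 were higher and 3 lower (median 0.01), beside 12% and 10.2% with a median of -0.01. The counts of lower genes were near those shares of all probe sets. In SPI against WPH 6 were higher and 7 lower (median -0.13), beside 10.1% and 9.83% with a median of -0.08. The list as a whole thus had a median near that of all probe sets while in WPH against CAS the single genes at its ends, Npr1 and Sdc1, had changes about as large as that of Cfd.

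Among receptors and signalling genes of hormones that act on fat, some were higher and others did not pass. Npr1, the receptor for atrial natriuretic peptide, read 561, 563 and 523 with SPI, 969.9, 1203 and 1099 with WPH, and 353, 346.5 and 328 with CAS, with no overlap between diets. It was 3.18-fold higher with WPH (log2 change 1.67 ± 0.11, limma adjusted p = 7.45e-07) and 1.6-fold higher with SPI (0.68 ± 0.11, adjusted p = 0.00129) than with CAS. Adrb3, the beta-3 adrenergic receptor that starts lipolysis in rodent fat, averaged 918 ± 103 with SPI, 1377 ± 152 with WPH and 678 ± 73.4 with CAS, 1.35-fold and 2.03-fold that of CAS (adjusted p = 0.0303 and 7.16e-05). Pde3b, the phosphodiesterase by which insulin restrains lipolysis, was called in SPI against CAS (1.61-fold, adjusted p = 0.0416), and its value in WPH against CAS was 0.36 ± 0.21 on the log2 scale (adjusted p = 0.203). The insulin receptor Insr, its substrate Irs1 and the prostaglandin receptor Ptger3 did not pass in either comparison with CAS, with log2 changes of 0.01, -0.09 and -0.06 with SPI and -0.38, -0.55 and 0.18 with WPH, and the receptors Npr3 and Adora1 were too dim to compare.

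Carriers and uptake genes were likewise divided. Fabp5, a fatty acid carrier of the same family as Fabp4, read 1259, 1484 and 1394 with SPI, 1330.0, 1515 and 1361 with WPH, and 612.5, 562 and 678 with CAS. SPI and WPH lay side by side and far from CAS, at 2.23-fold (1.16 ± 0.11, adjusted p = 2.52e-05) and 2.27-fold (1.18 ± 0.11, adjusted p = 6.99e-06). Slc2a4, the insulin-responsive glucose transporter of fat and muscle, was 1.39-fold higher with SPI (adjusted p = 0.0279) and 1.86-fold higher with WPH (adjusted p = 0.000263). Rbp4, the retinol carrier, was 1.71-fold (adjusted p = 0.0133) and 2.17-fold (adjusted p = 0.000552) that of CAS. The authors also measured Rbp4 by real-time RT-PCR in the individual rats whose RNA made these pools. They report that it alone, among the genes they selected, fell short of their minimum fold change in the predicted direction. The array values for Rbp4 were therefore not borne out at that minimum by RT-PCR on the same rats. Why the measures differed was not tested. Aqp7, a glycerol channel, and Vldlr, a lipoprotein receptor, did not pass in either comparison, with log2 changes of -0.06 and -0.46 with SPI and 0.35 and -0.38 with WPH.

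Apoe, a lipoprotein component made by macrophages as well as fat cells, was highest with SPI. It averaged 16386 ± 1419 with SPI, 9891 ± 819 with WPH and 7239 ± 938 with CAS, 2.26-fold with SPI (1.18 ± 0.11, adjusted p = 2e-05) and 1.37-fold with WPH (0.46 ± 0.11, adjusted p = 0.00569). In SPI against WPH it was higher (log2 change 0.73 ± 0.11, adjusted p = 0.000724), unlike Cfd and Lpl. Hsd11b1, which regenerates active glucocorticoid, averaged 1142 ± 206 with SPI, 1613 ± 58.6 with WPH and 764 ± 15.8 with CAS (adjusted p = 0.00849 and 4.72e-05 against CAS).

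Other genes of the list were called against CAS in 1 diet and not in the other. Called higher in WPH against CAS, with adjusted p above the threshold in SPI against CAS, were Nnat (2.0-fold), Rxrg (1.65-fold), Agt (1.6-fold), Acsl1 (1.51-fold), Cidea (1.47-fold) and Plin2 (1.41-fold). Of these, Nnat, Acsl1 and Cidea also differed directly between SPI and WPH (adjusted p = 0.00967, 0.00424 and 0.0201), and the other 3 did not pass that test. Called higher in SPI against CAS and not in WPH against CAS were Pde3b, Ucp2 and Cav1, of which only Cav1 differed directly between SPI and WPH (adjusted p = 0.0143).

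Genes of the list with lower signals follow. Sdc1, syndecan-1, which is abundant in epithelium, read 953.8, 912 and 1017 with SPI, 321, 255 and 364 with WPH, and 965, 943.5 and 1196 with CAS. It was lower in WPH against CAS (log2 change -1.73 ± 0.15, adjusted p = 3.61e-06) and did not pass in SPI against CAS (-0.1 ± 0.15, adjusted p = 0.694). Pc, pyruvate carboxylase, was lower with SPI (-1.08 ± 0.17, adjusted p = 0.00116) and with WPH (-1.35 ± 0.17, adjusted p = 9.35e-05), as was Pck1, phosphoenolpyruvate carboxykinase (-0.97 ± 0.2 and -0.77 ± 0.2, adjusted p = 0.00497 and 0.00998). Me1 (malic enzyme), Cebpb (a transcription factor of early fat cell differentiation) and Dgat1 (the last step of triglyceride synthesis) were lower in WPH against CAS, at -0.6, -0.62 and -0.43, and each was higher in SPI against WPH, while Acadl was lower in SPI against CAS (-0.4, adjusted p = 0.0341).

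Partners and relatives of Pparg gave mixed values. Rxrg, a retinoid X receptor, was higher with WPH (0.71 ± 0.13, adjusted p = 0.000834), and Rxra was not called (-0.53 ± 0.34, adjusted p = 0.253). Ppard, a receptor of the same family as Pparg, averaged 789 ± 161 with SPI, 604 ± 58.3 with WPH and 777 ± 69.1 with CAS, and did not pass in either comparison with CAS (adjusted p = 0.984 and 0.0733), and Ppara, another of that family, was too dim to compare. The transcription factors Cebpa, Cebpd, Srebf1 and Nr1h3 did not pass either, nor did the synthetic enzymes Fasn and Acly, whose log2 changes were -0.26 ± 0.11 and -0.19 ± 0.19 with SPI and -0.11 ± 0.11 and 0.13 ± 0.19 with WPH.

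**Figure D3:**
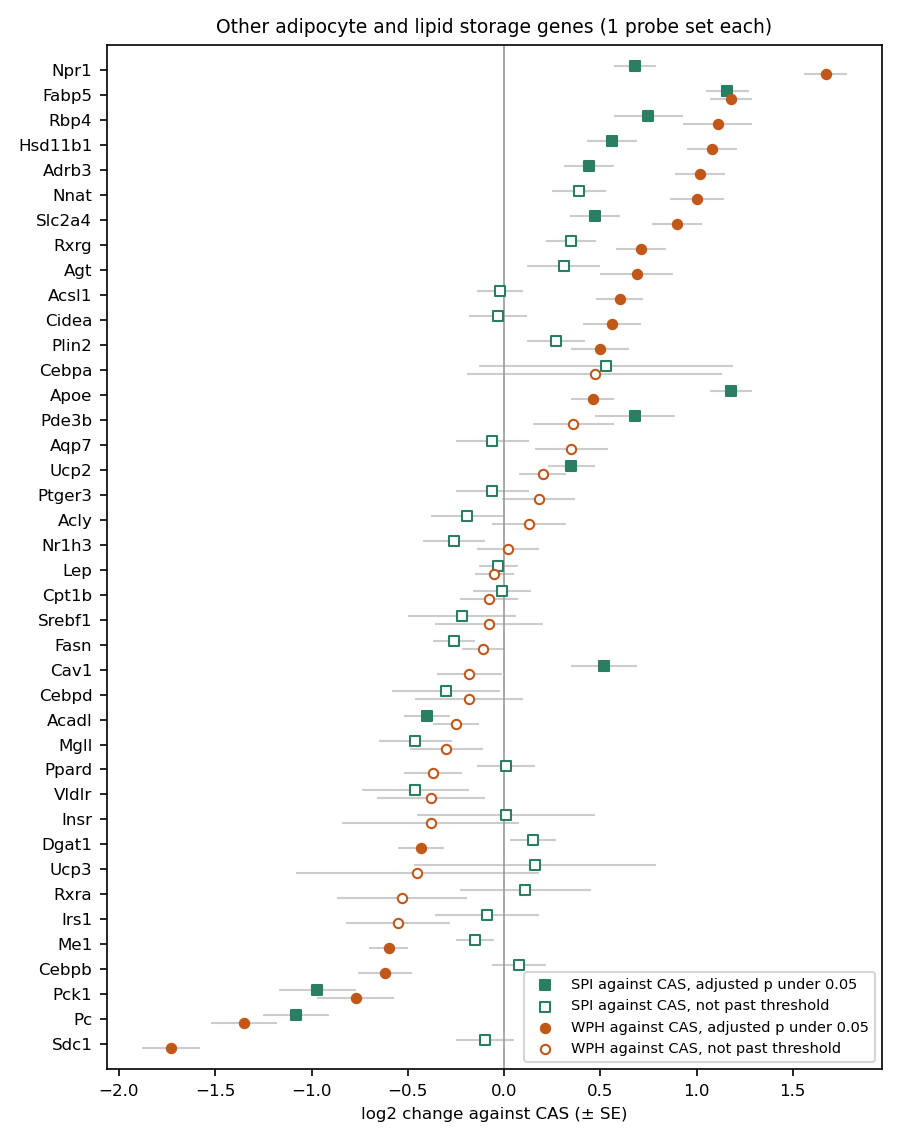
Log2 change against CAS (x axis, ± SE) of 40 other genes of fat cells and lipid storage, with squares for SPI and circles for WPH; filled symbols had an adjusted p under 0.05 in limma. The genes run in order of their WPH value from Npr1 (1.67) to Sdc1 (-1.73), with Lep close to 0 for both diets and Apoe further right for SPI.

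Markers of other cells of the colon wall moved with the same diets, and in bulk tissue fewer cells of a type and less RNA per cell cannot be told apart. Summed over the 15 measured epithelial markers, the signal relative to the CAS mean was 0.49 to 0.51 with SPI, 0.19 to 0.22 with WPH and 0.95 to 1.03 with CAS, and Epcam, a defining epithelial gene, averaged 2299 ± 138 with SPI, 440 ± 26.6 with WPH and 4124 ± 178 with CAS. In WPH against CAS all 15 were lower (median log2 change -2.48), beside 17.9% of all tested probe sets. In SPI against CAS 12 were (median -0.85), beside 10.2%. The 10 smooth muscle markers summed to 1.42 to 1.45 with SPI, 1.9 to 2.15 with WPH and 0.99 to 1.01 with CAS. Of the 10, 9 were higher in each comparison with CAS, beside 12% of all tested probe sets with SPI and 20.9% with WPH. The smooth muscle sums stand in the same order of diets as the signals of Cfd, Lpl and Lipe, and the epithelial sums in the opposite order.

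Fibroblast, nerve and lymphocyte markers also stood higher. The sum relative to the CAS mean was 1.52 to 1.76 with SPI and 1.74 to 2.09 with WPH for 12 fibroblast markers, 1.58 to 1.7 and 2.51 to 2.66 for 13 markers of enteric neurons and glia, and 1.16 to 1.65 and 2.08 to 2.63 for 10 lymphocyte markers. The lymphocyte sum was carried by Thy1, a gene that is also on the fibroblast list, and without it the other 9 summed to 1.28 to 1.55 with SPI, 1.39 to 1.61 with WPH and 0.89 to 1.07 with CAS, where SPI and WPH overlapped. In SPI against CAS 9 of 12 tested fibroblast markers were higher and 1 lower, and 10 of 12 nerve and 3 of 9 lymphocyte markers were higher. In WPH against CAS 11, 11 and 5 of the same lists were higher. Among all tested probe sets, 12% were higher and 10.2% lower in SPI against CAS, and 20.9% and 17.9% in WPH against CAS. Endothelial markers, cells that also use Fabp4 and Cd36, summed to 1.0 to 1.26 with SPI, 1.29 to 1.55 with WPH and 0.91 to 1.12 with CAS, with 2 of 8 tested ones higher and none lower in each comparison with CAS, beside 12% of all tested probe sets higher with SPI and 20.9% with WPH. Without those 2, Aqp1 and Egfl7, the other endothelial markers summed to 0.93 to 1.0 with SPI, 0.87 to 1.01 with WPH and 0.93 to 1.09 with CAS, and the diets overlapped. Macrophage markers summed to 1.51 to 1.58 with SPI, 1.14 to 1.27 with WPH and 0.93 to 1.07 with CAS. Of 4 tested ones, 2 were higher and 1 lower in each comparison with CAS, beside the shares of all probe sets given above. The macrophage sum rested on Lyz2, and without it the range was 1.03 to 1.15 with SPI, 1.06 to 1.2 with WPH and 0.91 to 1.08 with CAS, so that the diets overlapped. The part of any of these cell types in the changes of the 8 genes was not tested.

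**Figure D4:**
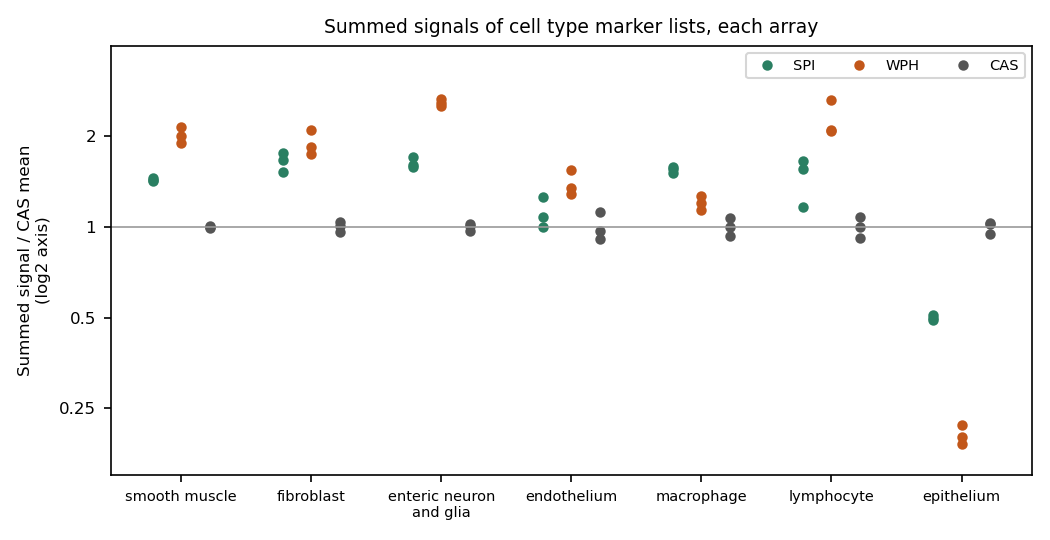
Summed signal of 7 cell type marker lists on each array, divided by the mean of the CAS arrays (log2 axis), with SPI, WPH and CAS side by side for each list. Smooth muscle, fibroblast, nerve and lymphocyte sums lie above 1 with both diets, epithelial sums lie at 0.49 to 0.51 with SPI and 0.19 to 0.22 with WPH, and macrophage sums, which rest largely on Lyz2 as the lymphocyte sums do on Thy1, are highest with SPI.

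Smaller lists held few genes, and their counts stand beside 12% of all tested probe sets higher in SPI against CAS, and 20.9% higher and 17.9% lower in WPH against CAS. Of 5 tested skeletal muscle markers, 1 was higher in SPI against CAS and 3 in WPH against CAS. Of 3 tested pancreatic genes, 1 was higher with SPI, and 2 were higher and 1 lower with WPH. The 1 tested mesothelial gene, Krt19, was lower with WPH and was not called with SPI. Its probe set is also on the epithelial list, so that it is not a separate observation. The ratio of the 3' to the 5' signal of beta-actin, a measure of RNA and target length, was 2.21 ± 0.126 with SPI, 2.98 ± 0.488 with WPH and 1.86 ± 0.0256 with CAS, and that of Gapdh was 1.56 ± 0.0848, 1.63 ± 0.0691 and 1.56 ± 0.199. The beta-actin ratio thus stood in the same order of diets as Cfd and Lpl, and its part in the results was not tested.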

How the data were processed

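RNA of rat proximal colon was measured on 9 Affymetrix RG_U34A arrays, 3 for each of the SPI, WPH and CAS diets. The deposited values are the intensity of each probe set, computed by the authors as MAS 5.0 signal and scaled to a target of 500 on each array, on a linear scale and without detection calls. The instrument records were read only for the time labelled as hybridization, taken here as that of the fluidics run. A gap of over 60 minutes between these times began a new wash round.

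Signals below 0.1 were raised to 0.1 and taken to log2 with no other normalization. Without the 59 Affymetrix control probe sets, 5606 averaged 100 or more in at least 1 diet. A single limma fit (version 3.58.1, R 4.3.3; lmFit, and eBayes with a variance trend) held the 9 arrays, and p-values were adjusted by Benjamini and Hochberg over all 5606. Folds were taken between mean signals and log2 changes from the limma fit. Tested on simulated data for WPH against CAS, the fit recovered 40% of probe sets changed 1.5-fold, 74% of those changed 2-fold and 92% of those changed 3-fold, and called 7 of 5406 unchanged ones. The simulation changed only 50 probe sets at each fold, with independent noise and no wash round. Far more probe sets were called in the data, so that these rates need not hold there. Gene symbols came from the platform annotation, which gives 1 symbol to 7018 probe sets, several to 308 and none to 1473. List genes were represented by the brightest probe set.

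The named genes are the 8 genes with all their probe sets, measured genes of a list of 69 others, the 5 nearest in pattern to Cfd and to Lpl, and control probe sets for actin and Gapdh. Genes named beside a cell type list (Epcam, Thy1, Lyz2, Aqp1, Egfl7, Krt19) were chosen after their values were seen. The 8 genes and all lists were chosen with earlier results of these data known. The promoter windows are from RefSeq (GRCr8), and 5 of the 8 genes matched. Alternatives, run for the 8 genes and for counts, were other floors, filters and scalings, no variance trend, fewer samples in the fit, the methods' t-test, a 2-fold minimum, the mean over the probe sets of a gene, blocks for replicate number and wash round, and leaving out each array. Probe sets with several symbols, and marker sums without single genes, were added after the data were seen. Summaries and plots were made in Python 3.11.15 (numpy 2.4.6, pandas 2.3.3, matplotlib 3.10.9).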

Additional observations from a re-analysis of the deposited data

Results flagged for a closer look

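Signal was also found in probe sets that the annotation gives to several genes at once and that were not counted above. Of 5 probe sets annotated to Cd36l1 and Cd36 together, 4 were higher in WPH against CAS in limma. All of these but rc_AA946368_at were also higher in SPI against CAS. Among all tested probe sets, 20.9% were called higher in WPH against CAS and 12% in SPI against CAS. The 2 probe sets for Cd36 alone stayed under 100 on all arrays. Which of the annotated genes the 5 shared probe sets measured was not tested.

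AF072411_g_at read 460.5, 376 and 527 with SPI, 549, 550.3 and 473 with WPH, and 230.2, 247 and 256 with CAS. Its log2 change was 0.88 in SPI against CAS (adjusted p = 0.00126) and 1.1 in WPH against CAS (adjusted p = 0.000107). AF072411_at changed by 0.8 with SPI (adjusted p = 0.0385) and 0.91 with WPH (adjusted p = 0.0117), and rc_AA925752_at by 0.66 with SPI (adjusted p = 0.0271) and 0.82 with WPH (adjusted p = 0.00451). On rc_AA946368_at the WPH change was 1.53 (adjusted p = 0.00377), and the SPI arrays were spread from 219 to 593 with a change of 0.93 that was not called (adjusted p = 0.0747).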

How the results depend on the processing

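Among the log2 changes of the 9 bright probe sets and of Lpl and Lipe as gene means, 197 values under alternatives kept their call in WPH against CAS and 3 lost it, 175 and 16 in SPI against CAS, and 185 and 12 in SPI against WPH, where 3 more passed the threshold. No direction was reversed, and no scaling moved the median of all probe sets by over 0.1. With the wash round as a block, the probe sets called higher and lower numbered 100 and 152 of all tested in SPI against CAS, and the higher ones 731 in WPH against CAS; in SPI against WPH they were 352 and 208. Members called were then 3 higher and 0 lower in SPI against CAS, 0 lower in WPH against CAS and 2 lower in SPI against WPH, and comparing within a round gave the same 731, 352, 208, 0 and 2. With these arrays the block and the comparison within a round are the same fit, so that their agreement was fixed beforehand. Both are counted in the tallies above for WPH against CAS and SPI against WPH. This fit sets WPH against CAS through WPH replicate 2 alone. The 2-fold minimum left 135 and 189 probe sets in SPI against CAS, 311 and 475 in WPH against CAS, and 251 and 57 in SPI against WPH, with 2, 0 and 0 members (higher and lower with SPI against CAS, lower in SPI against WPH). The methods' t-test after adjustment called 396 higher in SPI against CAS, and 308 higher and 228 lower (856 unadjusted) in SPI against WPH, with 3 members lower. Leaving out 1 array gave 4 to 7 members higher and 0 to 1 lower in SPI against CAS (0 without SPI replicate 1 or CAS replicate 3), and 342 (without WPH replicate 2) to 557 probe sets lower in SPI against WPH, with 358 without SPI replicate 1. The replicate numbers do not pair the arrays: 1 of 9 same-numbered pairs had a correlation over 0.1, and no array correlated best with its own number in both other diets. With the replicate number as a block, members called were 7 higher and 1 lower in both comparisons with CAS and 4 lower in SPI against WPH, where Lipe on X51415cds_s_at had an adjusted p of 0.0541. Of all tested probe sets, 1076 were called higher and 936 lower in WPH against CAS under that setting. Leaving an array out assumes equal spread in all diets. The genes of the lists were not run under alternatives.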

Other observations

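A probe set annotated to Scd, Scd2, Scd3 and Scd4 together (AF036761_g_at) read 37.4, 29.0 and 36.3 with SPI, 24.0, 30.2 and 26.8 with WPH, and 94.1, 125.8 and 75.1 with CAS. It lay under 100 on every SPI and WPH array and on 2 of the 3 CAS arrays, so that it was not compared, and neither SPI nor WPH overlapped with CAS.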
